A study of Mus musculus with 4 samples.

Results

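The Bcl-2 family controls whether a cell commits to the mitochondrial pathway of apoptosis. Its effectors, such as Bak, open the outer mitochondrial membrane and release cytochrome c. Guardians, such as Bcl-2, Bcl-xL and Mcl-1, hold the effectors in check, and BH3-only proteins, such as Bid and Bim, bind guardians or effectors and promote opening. Bid also links this pathway to tumour necrosis factor (TNF), because caspase-8 activated at death receptors cleaves it. In most fibroblasts TNF alone does not kill, since the cytokine also activates NF-kB and its survival genes.

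Of the 10 family genes considered, 9 had a probe set (an oligonucleotide group reporting 1 transcript) annotated to that gene alone, out of 8251 genes so annotated. The members are Bid, Bcl2l11, Bad, Bnip3, Bak1, Bcl2, Bcl2l1, Bcl2l2 and Mcl1, with 15 probe sets in all. No probe set carried the symbol Bax in the annotation used, and that gene is not analysed here. RNA of mouse embryonic fibroblasts in culture was hybridised to Affymetrix U74Av2 arrays. The 4 groups were unstimulated wild-type, wild-type with TNF, unstimulated Xiap knockout, and Xiap knockout with TNF. TNF was given to confluent cells at 20 ng/ml for 4 hours, and Xiap encodes an inhibitor of caspases. Each group is 1 array, and neither the number of embryos behind a culture nor the deleted part of Xiap is given in the sources used here. Fold changes between 2 arrays therefore lack any replicate check, and having 4 arrays in all limits precision.

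Signals are MAS5 intensities, and those below 92.5 were raised to that floor before log2 ratios were taken. Median signals were 150.7 for TNF-treated wild-type cells and 172.9 to 183.1 on the other 3 arrays. Nfkbia, the NF-kB inhibitor gene induced by NF-kB itself, was higher with TNF in both cultures, going from 585 to 3626 in wild-type and from 738 to 4357 in knockout cells. The brightest Xiap probe set read 239 and 126 in wild-type and 180 and 120 in knockout cells without and with TNF, which does not check the genotype, since its place relative to the deletion is unknown. Of 13 fibroblast marker genes on the array, 11 or 12 were above the floor on each array, with Col1a1 at 21982 to 25902. The cultures also differed in ways that a single gene deletion does not define. Xist, transcribed from the inactive X chromosome, read 34.3 and 5.4 in wild-type against 1232 and 1601 in knockout cells, and the Y-linked Eif2s3y read 489 and 308 against 2.8 and 9.1. Of the 13 fibroblast markers, 3 were at least 2-fold lower and 1 higher in the unstimulated knockout, against 4.70% and 4.55% of all measured genes. Unstimulated wild-type against knockout signals were 15414 against 124 for Dcn, 1120 against 309 for Thy1 and 1351 against 4106 for S100a4. In the limma genotype effect described below, 4 of 13 were lower and 2 higher, against 9.19% and 10.2% of all probe sets. The cell cycle inhibitor gene Cdkn2a read 2152 against 72.3 without TNF. Genotype and culture cannot be told apart below.

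Of the 15 family probe sets, 12 were above the floor on all 4 arrays, 1 on the unstimulated arrays alone, and 2 on none. Those 2 were the Bcl2 probe set 98868_at, at 8.2 to 23.8, and the Bcl2l1 probe set 99026_at, at 8.6 to 32.2, and neither gives a fold change. Both genes had brighter probe sets, described below.

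**Figure D1:**
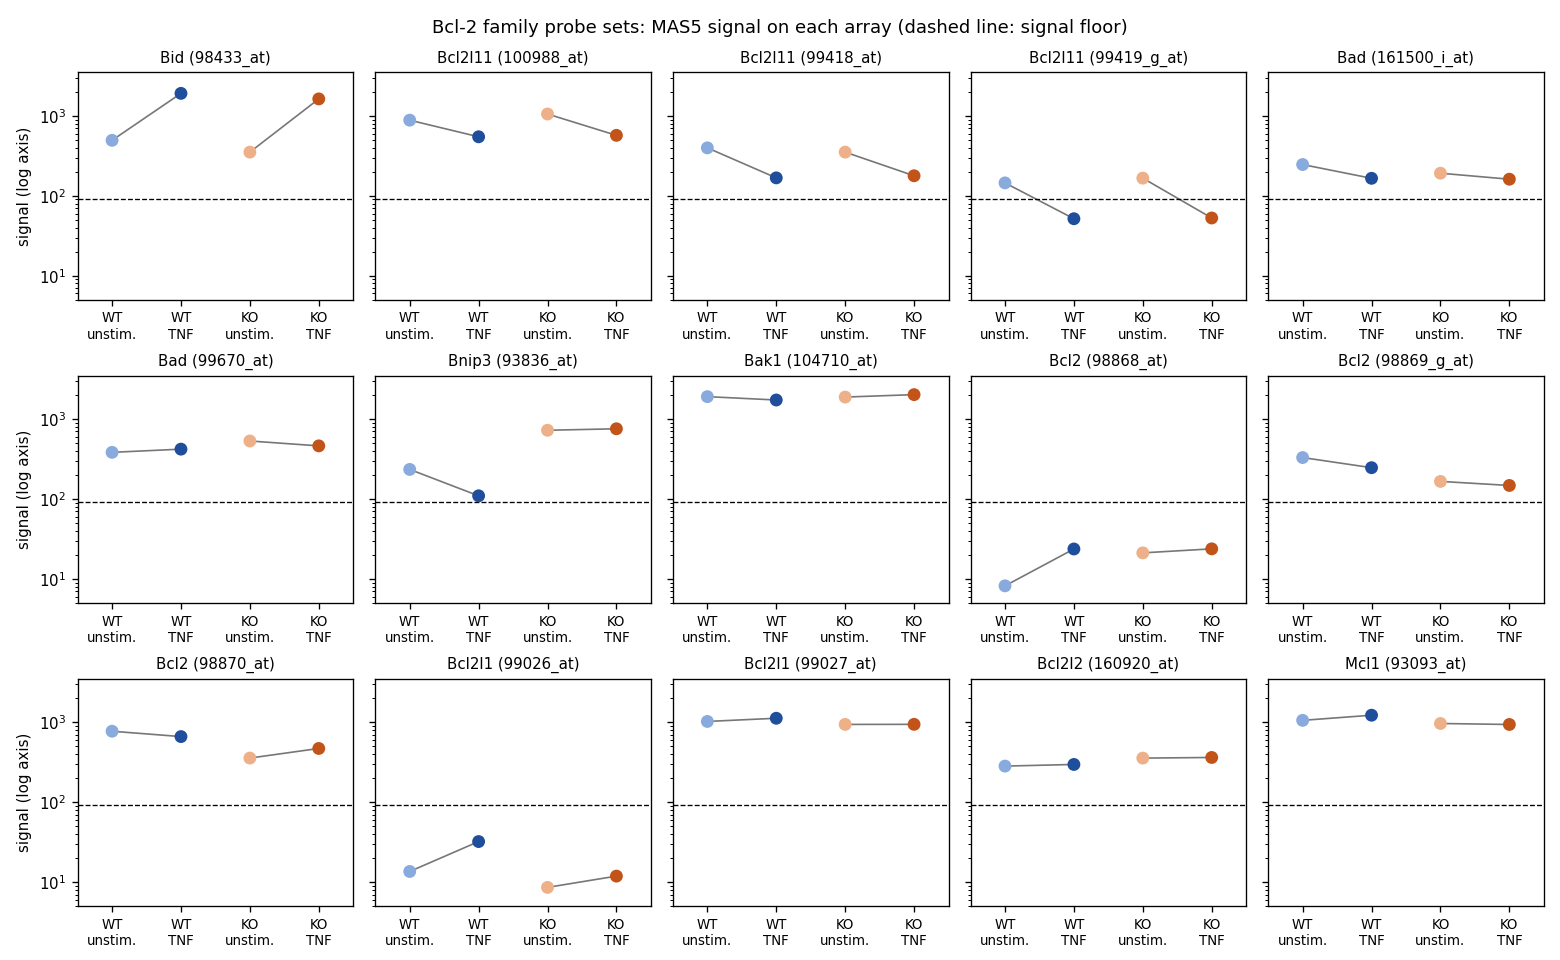
MAS5 signal (log axis) of the 15 Bcl-2 family probe sets on the 4 arrays, 1 point per array, with lines joining the unstimulated and TNF-treated array of a genotype and a dashed line at the floor of 92.5. Bid was higher on both TNF arrays, all 3 Bcl2l11 probe sets were lower on both, and Bnip3 was higher on both knockout arrays.

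With TNF, Bid was the family member that rose, while the 3 probe sets of Bcl2l11 had lower signals and the guardians moved little. In wild-type cells 1 of 13 measured family probe sets was at least 2-fold higher, where 2.54% of all 7846 measured probe sets were, and 2 of 13 were at least 2-fold lower, against 2.79%. In knockout cells 1 of 13 was higher, against 1.57% of 7764, and 0 of 13 lower, against 0.399%. The median log2 change of the family probe sets was -0.22 for wild-type and -0.04 for knockout cells, beside -0.10 and -0.05 over all measured probe sets. Genes with several probe sets weigh more in these medians. With each gene read by its brightest probe set, the medians of the 9 members were 0.07 and 0.03. Over all measured genes they were -0.10 and -0.04. The split of all wild-type calls depended on scaling: 47.6% of calls at 2-fold were increases as deposited, 68.3% after quantile normalization and 79.1% with equal medians, which moved the median of all probe sets from -0.10 to 0.16.

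**Figure D2:**
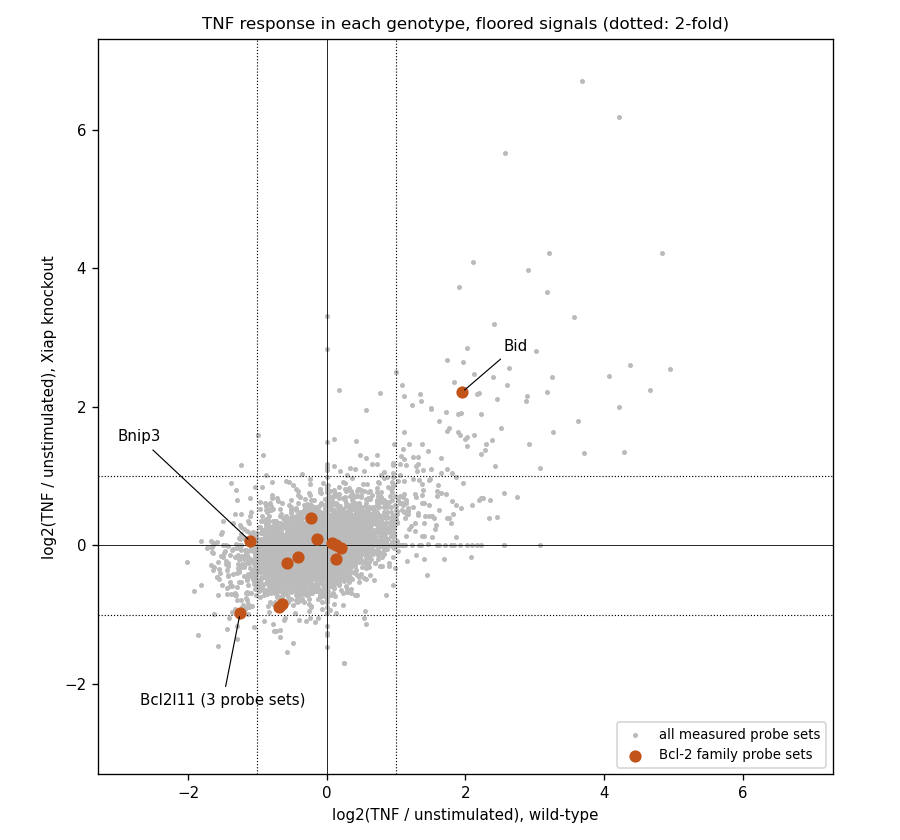
Log2 ratio of TNF-treated to unstimulated signal in wild-type (x axis) and Xiap knockout cells (y axis) for all measured probe sets (grey) and the Bcl-2 family (orange), with dotted lines at 2-fold. Bid lies at 1.95 and 2.21, the Bcl2l11 probe sets lie below 0 on both axes, and Bnip3 lies at -1.10 and 0.06.

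The additive limma fit gives each probe set a TNF effect averaged over both genotypes and a genotype effect averaged over both states. Its error is the 1 residual degree of freedom left by 4 arrays, moderated over all 8228 measured probe sets, so it counts a true difference of response as error and has no replicate culture behind it. Adjusted p-values below are from this fit after Benjamini-Hochberg adjustment over those probe sets. For TNF, 1 of 13 family probe sets rose, against 1.08% of all, and 0 of 13 fell, against 0.0851% of all. At an unadjusted p under 0.05 in the limma fit the family counted 4 of 13, namely Bid and the 3 probe sets of Bcl2l11, and all probe sets counted 1126 of 8228. The 3 Bcl2l11 probe sets report 1 gene, so the 4 are not separate family members.

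Among the BH3-only genes, Bid read 495 and 1913 in wild-type cells without and with TNF, and 352 and 1631 in knockout cells. Both TNF signals lay above both unstimulated signals. The increase was 3.87-fold with Xiap intact and 4.63-fold in the knockout. Bid rose by 2.08 on the log2 scale in the limma fit (SE 0.14, adjusted p = 0.00235), higher in both pairs of arrays. The call was lost when the genotype term was left out of the limma model, with the same effect of 2.08 and an adjusted p = 0.507. In that model no probe set passed, up or down. Over the other settings run, the adjusted p for Bid in the limma fit ranged from 8.1e-24 with equal medians, where the error was pooled over probe sets, to 0.0496 without the intensity trend.

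The sequence upstream of Bid is shown because Bid is the member whose RNA rose with TNF. The 250 bases before its annotated start (RefSeq, GRCm38.p6, chr6:120916825-120917074, minus strand) are given in lower case. They are 63.6% G or C, where the median of all such windows is 52.4%.
Bid: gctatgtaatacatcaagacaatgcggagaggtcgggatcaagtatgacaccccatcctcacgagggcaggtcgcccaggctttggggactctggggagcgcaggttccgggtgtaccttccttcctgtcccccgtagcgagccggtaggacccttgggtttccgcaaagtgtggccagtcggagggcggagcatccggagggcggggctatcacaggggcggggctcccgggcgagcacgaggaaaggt
The consensus kB site was searched on both strands and had no match, so no base is in capitals. It matched in 7.25% of the 32841 upstream windows of that length. Of the 13 windows of the 9 members, 1 of the 3 belonging to Bcl2l1 held a match.

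The 5 genes whose profile over the 4 arrays was nearest to that of Bid were Psmb10, Relb, Psmb8, Sod2 and Tnip1. Nearness was the Euclidean distance between mean-centred log2 signals, among 5129 other genes above the floor on all arrays. Psmb10, an immunoproteasome subunit gene, was nearest at a distance of 0.17, with signals of 686 and 2448 in wild-type and 412 and 2113 in knockout cells without and with TNF. The other 4 lay at 0.38 to 0.42. These distances describe 4 arrays and carry no test.

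Bcl2l11 encodes Bim, a BH3-only protein that binds every main guardian, and its 3 probe sets all read lower with TNF in both genotypes. The brightest, 100988_at, read 884 and 548 in wild-type and 1056 and 571 in knockout cells without and with TNF. The second, 99418_at, read 398 and 168 in wild-type and 352 and 178 in knockout cells. The third, 99419_g_at, read 145 and 166 on the unstimulated arrays and was below the floor, at 51.7 and 52.8, on the TNF arrays. For each probe set both TNF signals lay below both unstimulated signals. The second and the third were designed on the same source sequence, so they are not independent of each other, and the first was designed on another.

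As log2 changes the first probe set gave -0.69 for wild-type and -0.89 for knockout cells. The second gave -1.25 and -0.98. The third was lower by at least 1.57-fold in wild-type and by at least 1.80-fold in knockout cells. In the limma fit the TNF effects were -0.79 (SE 0.14, adjusted p = 0.0787), -1.11 (SE 0.22, adjusted p = 0.0967) and -0.75 (SE 0.18, adjusted p = 0.156), none past the threshold. The third probe set had both TNF signals raised to the floor. Its effect is therefore a bound, and its own residual comes from the unstimulated arrays alone. With no floor the limma effect of the third was -1.57 (adjusted p = 0.167). The limma call depended on scaling. With quantile normalization the first probe set passed at -0.78 (adjusted p = 0.0476), and with equal medians the second and the third passed at -0.95 (adjusted p = 0.00351) and -0.68 (adjusted p = 0.0227). With equal medians limma estimated infinite prior degrees of freedom, so that fit gives probe sets of like signal the same error. Averaged over its probe sets, the third as floored, Bcl2l11 had a limma effect of -0.88 (SE 0.19, adjusted p = 0.165). Dim probe sets as a class read lower on the wild-type TNF array. With measured probe sets split into 5 equal groups by mean signal, the median log2 change in wild-type was -0.05 in the group of the first probe set, -0.26 in that of the second and -0.12 in that of the third. In knockout cells these medians were -0.04, -0.07 and 0.00. The part of this shift in the Bcl2l11 values was not tested.

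The upstream window of Bcl2l11 is shown because all its probe sets read lower with TNF. Bim is a known target of FOXO factors, and GTAAACA, a core FOXO site, was searched on both strands. The first annotated start (RefSeq, GRCm38.p6, chr2:128125788-128126037, plus strand) had 1 match, in capitals, whose first base lies 227 bases before the start.
Bcl2l11: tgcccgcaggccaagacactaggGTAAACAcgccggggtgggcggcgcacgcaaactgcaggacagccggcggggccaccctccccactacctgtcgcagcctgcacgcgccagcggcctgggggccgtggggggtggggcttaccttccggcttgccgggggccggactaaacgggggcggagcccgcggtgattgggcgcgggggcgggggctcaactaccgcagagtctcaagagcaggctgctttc
GTAAACA was present in 3.17% of all 32841 windows and in none of the other 12 windows of the members, the second Bcl2l11 start included. A match of letters is a description and not a bound site.

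Bad, a BH3-only protein that is silenced by phosphorylation, had discordant probe sets. The brighter, 99670_at, read 384 and 421 in wild-type and 532 and 462 in knockout cells without and with TNF, a range with no common direction. The dimmer, 161500_i_at, read 246 and 166 in wild-type and 192 and 161 in knockout cells, with both TNF signals lowest. Their TNF effects in the limma fit were -0.04 (SE 0.19, adjusted p = 0.956) and -0.41 (SE 0.22, adjusted p = 0.455).

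Bnip3 encodes a mitochondrial protein with an atypical BH3 region that takes part in mitophagy and is induced by hypoxia. It read 235 and 110 in wild-type and 725 and 757 in knockout cells without and with TNF. The TNF-treated wild-type array had the lowest signal, close to the floor, and both knockout arrays lay above both wild-type arrays. In wild-type cells it was 2.14-fold lower with TNF, and in knockout cells 1.04-fold higher. The wild-type log2 change of -1.10 fell short of 2-fold after quantile normalization (-0.80), with equal medians (-0.82) and with a pseudocount in place of the floor (-0.83). The limma TNF effect was -0.52 (SE 0.31, adjusted p = 0.487).

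The effector gene Bak1 read 1909 and 1733 in wild-type and 1886 and 2023 in knockout cells without and with TNF. The lowest and highest signals were both on TNF arrays. The limma TNF effect was -0.02 (SE 0.11, adjusted p = 0.96).

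Of the guardians, Bcl2l1 (Bcl-xL), Bcl2l2 (Bcl-w) and Mcl1 changed by at most 1.16-fold with TNF in either genotype. With equal medians their log2 changes were 0.41, 0.35 and 0.49 in wild-type and 0.05, 0.07 and 0.01 in knockout cells. Bcl2l1, by its probe set 99027_at, read 1025 and 1123 in wild-type and 941 and 943 in knockout cells without and with TNF. Bcl2l2 read 283 and 297 in wild-type and 356 and 363 in knockout cells. Mcl1, which encodes a short-lived guardian, read 1057 and 1226 in wild-type and 966 and 939 in knockout cells. Their limma TNF effects were 0.07 (SE 0.12), 0.05 (SE 0.21) and 0.09 (SE 0.13), with adjusted p-values of 0.79 to 0.939. The measured probe sets of Bcl2 differed with TNF: the brighter, 98870_at, gave log2 changes of -0.22 for wild-type and 0.40 for knockout cells, and the dimmer, 98869_g_at, gave -0.42 and -0.17, with a limma effect of -0.29 (SE 0.22, adjusted p = 0.575).

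Between genotypes, Bnip3 was higher and Bcl2 lower in the knockout cultures, and the other members differed by less than 2-fold. Without TNF, 1 of 13 family probe sets was at least 2-fold higher, against 4.53% of 8060, and 1 of 13 at least 2-fold lower, against 4.58%. With TNF, 1 of 12 was higher, against 5.83% of 7754, and 0 of 12 lower, against 4.97%. With TNF 54.0% of all 2-fold calls were increases, and 36.0% were with equal medians. In the limma fit, 1 of 13 family probe sets was higher in the knockout, against 10.2% of all, and 2 of 13 lower, against 9.19%. These family counts lie near those of the array as a whole.

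**Figure D3:**
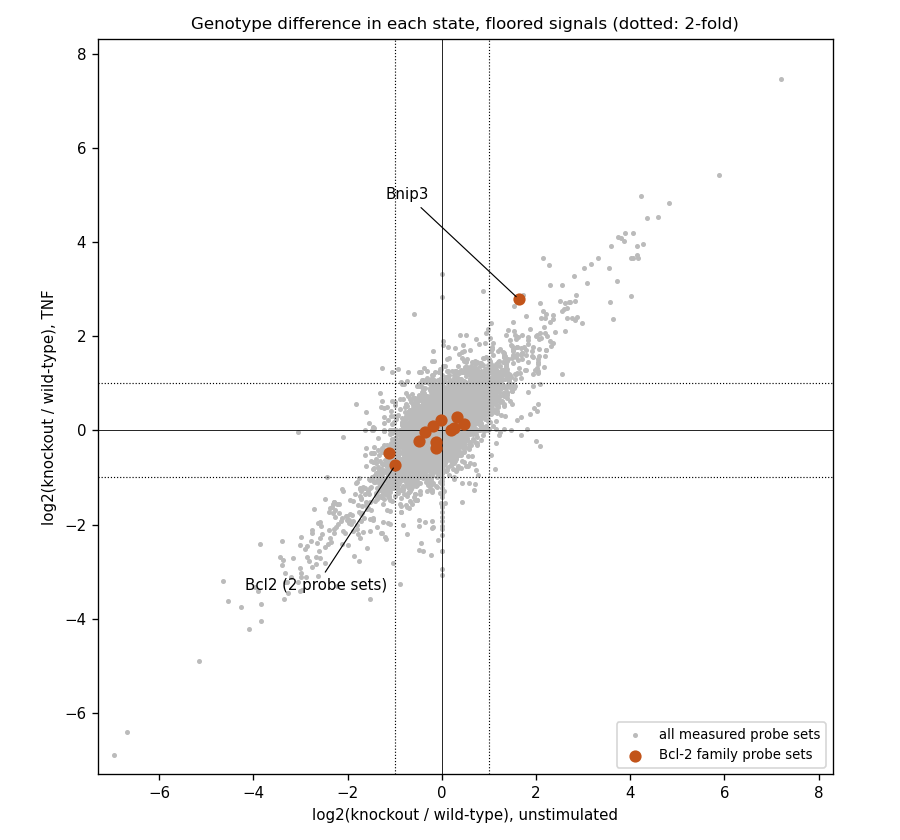
Log2 ratio of Xiap knockout to wild-type signal without TNF (x axis) and with TNF (y axis) for all measured probe sets (grey) and the Bcl-2 family (orange), with dotted lines at 2-fold. Bnip3 lies at 1.63 and 2.79, and the measured Bcl2 probe sets lie at -1.12 and -0.49 and at -0.99 and -0.74.

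Bnip3 was 3.09-fold higher in knockout than in wild-type cells without TNF and 6.90-fold higher with TNF. Its genotype effect in the limma fit was 2.21 (SE 0.31, adjusted p = 0.005), in the same direction in both states. Without the TNF term in the limma model the adjusted p was 0.0564, for the same effect. The signal of 110 on the TNF-treated wild-type array lies near the floor, and the size depends on it: a floor at the 60th percentile instead gave a log2 difference with TNF of 1.38 in place of 2.79, and a limma effect of 1.35 (adjusted p = 0.00142).

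The upstream sequence of Bnip3 is shown because, of the family members measured, Bnip3 differed most between the cultures. Its promoter is a known target of hypoxia-inducible factor (HIF). The motif ACGTG and its variant GCGTG were searched on both strands of the 250 bases before the start (RefSeq, GRCm38.p6, chr7:138909507-138909756, minus strand), and the matches are in capitals.
Bnip3: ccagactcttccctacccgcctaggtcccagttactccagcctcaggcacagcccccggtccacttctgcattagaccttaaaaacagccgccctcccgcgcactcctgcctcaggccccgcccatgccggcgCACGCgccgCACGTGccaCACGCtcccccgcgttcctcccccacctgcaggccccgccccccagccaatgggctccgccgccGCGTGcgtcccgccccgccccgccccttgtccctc
ACGTG matched 2 times, once on each strand of the same palindromic CACGTG, and GCGTG 3 times. Over all windows, 16.6% held ACGTG and 28.2% held GCGTG. The Bnip3 window is 72.4% G or C, where the median of all windows is 52.4%, and both motifs contain CG. The shares over all windows were not matched for this. Of the other 12 windows of the members, 0 held ACGTG and 4 held GCGTG, namely the first Bcl2l11 window, both windows of Bad and 1 of Bcl2l1. Bax, the family gene without a probe set, is not among these windows. Its own window also held ACGTG 2 times, once on each strand, and GCGTG 0 times.

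Of 22 measured HIF target genes, 4 were at least 2-fold higher in the knockout without TNF and 0 lower, against 4.55% and 4.70% of all measured genes. With TNF, 3 of 20 were higher and 1 lower, against 5.62% and 5.01%. Their median log2 difference was 0.29 without and 0.35 with TNF, beside -0.01 and 0.07 over all genes. The stress regulator gene Ddit4 was 2.88-fold and the lactate dehydrogenase gene Ldha 2.26-fold higher without TNF, followed by P4ha1 (2.04-fold) and Pfkl (2.01-fold). With TNF, Ddit4, Pfkl and Mxi1 were higher, at log2 differences of 1.68, 1.35 and 1.03, and the growth factor gene Vegfa was 2.29-fold lower. In the limma genotype effect 8 of 22 were higher and 3 lower, against 10.2% and 9.19% of all probe sets. With TNF as the contrast, Mxi1 was 2.07-fold lower in wild-type cells, and no other HIF target was past 2-fold in either genotype. Lower were thus 1 of 22 in wild-type cells, against 2.61% of measured genes, and 0 of 20 in knockout cells, against 0.409%. Higher were 0 of 22 and 0 of 20, against 2.64% and 1.48%. The 5 profiles nearest to that of Bnip3 were Six4 (distance 0.40), Igfbp4 (0.51), Tob1 (0.57), Hoxd8 (0.62) and Ssr1 (0.66).

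Bcl2, the founding guardian, read 773 and 662 in wild-type and 357 and 471 in knockout cells without and with TNF, by its brightest probe set 98870_at. The probe set 98869_g_at, designed on the same source sequence, read 330 and 247 against 166 and 148. On both probe sets both knockout signals lay below both wild-type signals. The brighter was 2.17-fold lower in the knockout without TNF and 1.41-fold lower with it, and the dimmer 1.99-fold and 1.67-fold. The limma genotype effects were -0.80 (SE 0.20, adjusted p = 0.0398) and -0.86 (SE 0.22, adjusted p = 0.0414), each lower in both states.

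These limma calls stood close to the threshold, and the mean of the measured probe sets gave -0.83 (SE 0.20, adjusted p = 0.0442). Leaving out the TNF term gave adjusted p-values of 0.107 and 0.11 for the same effects, and a pseudocount of 50 in place of the floor gave 0.0565 and 0.111. The brighter probe set was also lost without the intensity trend (adjusted p = 0.0754). The dimmer was lost with a floor at the 20th percentile (adjusted p = 0.0745), at the 60th percentile (adjusted p = 0.595) and with no floor (adjusted p = 0.0637). The summed signal of 7 endothelial marker genes was also lower in the knockout, at 763 and 804 against 2293 and 3231. Of these sums Eng gave 532 and 386 against 1774 and 1895. Flt1, higher with TNF in both genotypes, gave 30.3 and 256 against 155 and 1172. The defining marker genes Pecam1 and Cdh5 read at most 103.8 and 39.1. Macrophage markers summed to 1824 to 2508 in wild-type and 2853 to 2976 in knockout cells. Most of this was Cd14, at 1534 to 1900 and 2187 to 2402, while Ptprc read 4.5 to 9.2. Of 8 epithelial markers 1, Cdh1, was above the floor. The part of other cell types in the Bcl2 and Bnip3 differences was not tested.

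Bid was 1.40-fold lower in knockout cells without TNF and 1.17-fold lower with it (limma effect -0.36, SE 0.14, adjusted p = 0.127). The 3 Bcl2l11 probe sets had genotype effects of -0.04 to 0.16 in the limma fit, with adjusted p-values of 0.504 to 0.919. Mcl1 and Bcl2l1 had lower signals on both knockout arrays, with limma effects of -0.26 (SE 0.13, adjusted p = 0.225) and -0.19 (SE 0.12, adjusted p = 0.35). Bcl2l2 had higher signals on both (0.31, SE 0.21, adjusted p = 0.355), and Bak1 gave 0.10 (SE 0.11, adjusted p = 0.577). The probe sets of Bad pointed opposite ways, at 0.30 (SE 0.19, adjusted p = 0.331) and -0.20 (SE 0.22, adjusted p = 0.592).

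**Figure D4:**
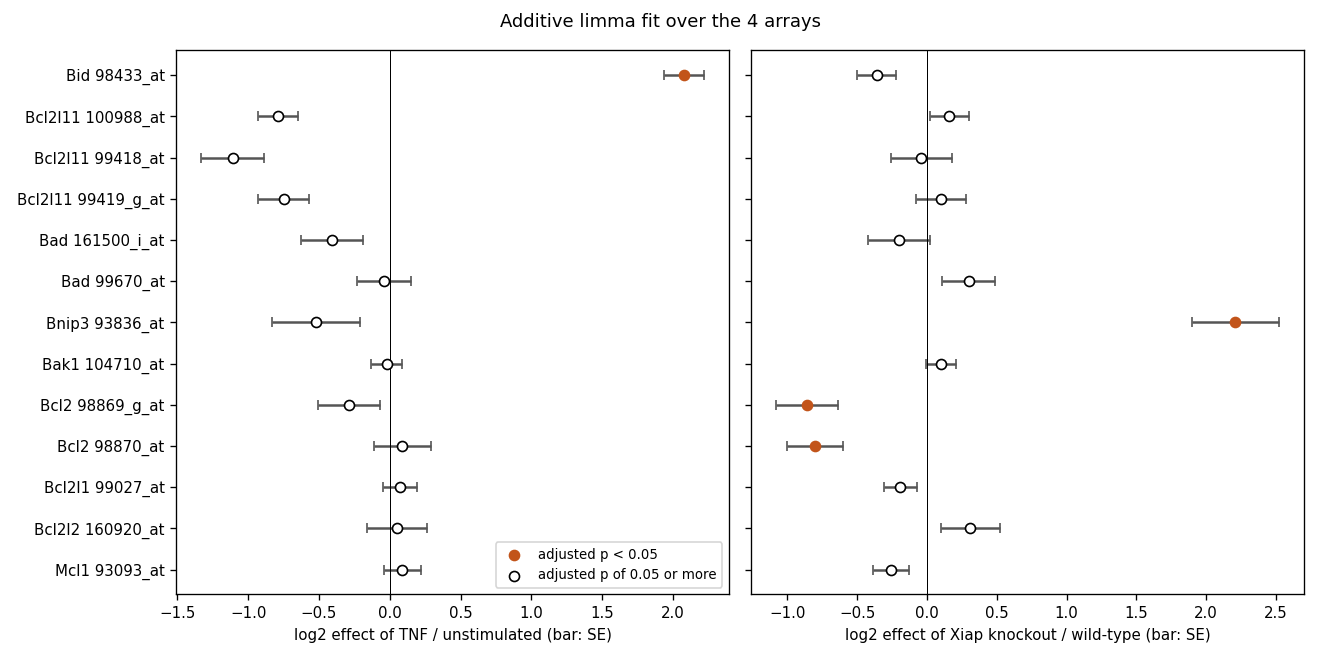
Effects of TNF (left) and of the Xiap knockout (right) on the 13 measured Bcl-2 family probe sets in the additive limma fit, in log2 units with bars of 1 SE. Filled points have an adjusted p under 0.05: Bid at 2.08 for TNF, and Bnip3 at 2.21 and the Bcl2 probe sets at -0.80 and -0.86 for genotype.

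The response to TNF was also set against genotype directly, as the log2 change in knockout minus that in wild-type cells. This quantity uses all 4 arrays and has no test. Bnip3 was the 1 of 13 family probe sets past 2-fold in this difference, at 1.16, against 2.69% of all 8228 with a larger and 1.23% with a smaller value. Its value was 0.87 to 0.93 with quantile normalization, equal medians or a pseudocount, and 0.06 with a floor at the 60th percentile. Bid, at 0.26, and the Bcl2l11 probe sets, at -0.20 to 0.27, lay within 2-fold in this difference. The median over the family probe sets was 0.24, beside 0.05 over all probe sets. With each gene read by its brightest probe set, the median was -0.04 for the 9 members and 0.04 over all genes. With equal medians 37.8% rather than 68.6% of all 2-fold differences were larger in the knockout, and the median of all probe sets moved from 0.05 to -0.16.

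Other genes of the pathway were read from lists of family relatives, downstream genes and upstream death receptor genes, each gene by its brightest probe set. Of 11 measured relatives of the family (10 between genotypes with TNF), none was past 2-fold in any of the 4 comparisons of arrays as floored. Over all measured genes, the share at least 2-fold higher or lower ran from 0.409% to 5.62% across these comparisons and directions. For Bcl2l10 and Bik the floor caps some values, so a change past 2-fold cannot be read there. With TNF in wild-type cells Bcl2l10 was at least 1.78-fold lower (164.7 to 31.1) and Bik at least 1.23-fold lower (113.4 to 49.0). Bcl2l10 was also at least 1.39-fold lower with TNF in knockout cells. Bik was at least 1.04-fold higher in knockout than in wild-type cells with TNF. In the limma fit 0 of 11 passed for TNF, against 1.08% of all probe sets higher and 0.0851% lower. At an unadjusted limma p under 0.05 for TNF there was 1, Bcl2l10, where 1126 of all 8228 probe sets were. For genotype 1 of 11 was lower in the knockout, the mitochondrial carrier homologue gene Mtch2, at -0.45 (SE 0.10), where 9.19% of all probe sets were lower. Hrk, a BH3-only gene, read 5.1 to 7.5, below the floor throughout. The effector relative Bok read 550 to 843 and differed by at most 1.32-fold in any of the comparisons.

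Of 13 measured downstream genes, none gained 2-fold with TNF in either genotype, against 2.64% of measured genes in wild-type and 1.48% in knockout cells. In wild-type cells 1 of 13 was at least 2-fold lower, against 2.61% of measured genes, and in knockout cells 0 of 13, against 0.409%. This was Endog, a mitochondrial nuclease gene, 2.09-fold lower in wild-type (204 to 97.5) and 1.06-fold lower in knockout cells. Its wild-type TNF signal lay close to the floor of 92.5, which limits that value. The apoptosome gene Apaf1 read 277 and 305 in wild-type and 417 and 459 in knockout cells without and with TNF. Its partner Cycs, cytochrome c, read 191 and 225 against 331 and 409. Ppif, the cyclophilin gene of the mitochondrial permeability pore, was 2.04-fold lower in the knockout without TNF and 2.19-fold lower with it. It was the 1 of 13 at least 2-fold lower without and with TNF, against 4.70% and 5.01% of measured genes. Higher were 0 of 13 in both, against 4.55% and 5.62%. In the limma genotype effect 2 of 13 were higher (Cycs and the adenine nucleotide carrier gene Slc25a5) and 1 lower (Ppif), against 10.2% and 9.19% of all probe sets. For TNF 0 of 13 passed in the limma fit, against 1.08% of all probe sets higher and 0.0851% lower. An unadjusted limma p under 0.05 was found for 2 of 13, Dffa and Casp6, and for 1126 of all 8228 probe sets.

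Of 9 measured genes upstream of Bid, 1 gained 2-fold or more with TNF in each genotype, the death receptor gene Fas, against 2.64% of measured genes in wild-type and 1.48% in knockout cells. Fas was at least 8.09-fold higher in wild-type cells (18.7 to 748) and at least 7.02-fold higher in knockout cells (38.2 to 650). The gene of the protease that cleaves Bid, Casp8, read 135 and 168 in wild-type against 131 and 148 in knockout cells, and the caspase-8 inhibitor gene Cflar read 160 and 169 against 277 and 299. The TNF receptor genes did not pass 2-fold with TNF: Tnfrsf1a read 1029 to 1130 on all arrays. Tnfrsf1b was 2.43-fold lower in the knockout without TNF, with a log2 difference of -1.24 with TNF. It was the 1 of 8 measured genes of this list lower without TNF and the 1 of 9 with it, against 4.70% and 5.01% of all measured genes. Tradd, the adaptor gene of the TNF receptor, read 1225 and 2411 in wild-type against 1803 and 1437 in knockout cells without and with TNF. It was the 1 of 9 past 2-fold in the difference of response, at -1.30, which has no test. Of all probe sets 1.23% had a smaller and 2.69% a larger value.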

How the data were processed

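The deposited file gives 1 linear intensity per probe set and array, made by the authors with MAS5, per the submitters' processing notes. For its version, background settings, detection calls and genome build, nothing is stated in the labels. The file holds 12488 probe sets on 4 arrays, 1 per group, all with a trimmed mean of 500.3 (2% left out at each end). Groups came from sample titles. The 66 control probe sets were left out. Names came from the platform annotation: 10833 probe sets had 1 symbol, 396 several and 1193 none, and all 9 members matched RefSeq by Entrez identifier. Signals were brought to an equal trimmed mean, floored at 92.5 (the 40th percentile) and converted to log2. A probe set counted as measured when 1 array of a comparison exceeded the floor, and a fold with 1 array at the floor is a bound. Changes of 2-fold were counted without a test. The additive fit used limma 3.58.1 in R 4.3.3 (lmFit, eBayes with intensity trend, 2-sided, threshold 0.05), with 1 residual and 5.37 prior degrees of freedom. The code was also run on simulated data with independent noise and the same TNF effect in both genotypes. Those data hold no difference of response or of culture, so they cannot show how the fit performs on these arrays. Replicate cultures are lacking, and the residual is the difference of TNF response between the genotypes, in which array noise, culture and true differences cannot be told apart. Alternatives were other scalings, floors, a pseudocount of 50, 1.5-fold, gene means, no trend and dropping a model term. Members and lists were chosen with earlier results of these data known. Every family probe set is named. Other genes named are those past 2-fold, up to 4 per list and comparison, the 5 nearest profiles, and Nfkbia and Xiap. Xist, Eif2s3y, Cdkn2a, the marker genes, list genes under 2-fold and the motifs were chosen after values were seen. Upstream windows are RefSeq sequence of GRCm38.p6.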

Additional observations from a re-analysis of the deposited data

Results flagged for a closer look

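In 5 of the 12 family probe sets above the floor on all arrays (41.7%), the TNF change had opposite signs in the genotypes, as it did in 35.2% of all 6664 such probe sets. None of these differences was tested. Bnip3 had the largest difference of log2 response, at 1.16, from -1.10 (wild-type) and 0.06 (knockout). The Bcl2 probe set 98870_at differed by 0.62 (-0.22 and 0.40) and Bak1 by 0.24 (-0.14 and 0.10). The Bad probe set 99670_at differed by -0.34 (0.13 and -0.20) and Mcl1 by -0.25 (0.21 and -0.04). The signs depended on scaling. With equal medians Bak1 gave 0.14 (wild-type) and 0.15 (knockout), the Bcl2 probe set 0.06 and 0.45, and Mcl1 0.49 and 0.01. Those no longer had opposite signs, whereas Bnip3 (-0.82 and 0.11) and the Bad probe set (0.41 and -0.16) still did.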

How the results depend on the processing

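No paired analysis was possible because each group is 1 array and the labels carry no replicate numbers; leaving out an array leaves the additive fit no residual degree of freedom. Of 130 counts recomputed under the other settings, 93 stayed within 1.5 times the main count and 37 moved. The 93 include the counts without rescaling. Those could hardly differ, since the deposited arrays already had an equal trimmed mean of 500.3. No change past 2-fold reversed.

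The count of family probe sets at least 2-fold lower with TNF in wild-type cells, 2 as reported, was 1 with quantile normalization, a pseudocount or gene means, 0 with equal medians or a floor at the 60th percentile, and 4 at 1.5-fold. Higher in wild-type it was 3 with no floor. Lower with TNF in knockout cells it went from 0 to 1 with a floor at the 20th percentile, no floor or a pseudocount, and to 3 at 1.5-fold. Lower in the unstimulated knockout it went from 1 to 2 with quantile normalization or at 1.5-fold, and higher from 1 to 2 with no floor. Lower in the knockout under TNF it went from 0 to 1 with no floor or at 1.5-fold. The count of TNF changes more positive in knockout than in wild-type cells by 2-fold, 1 as reported (Bnip3), was 0 with quantile normalization, equal medians, a floor at the 60th percentile or a pseudocount and 2 at 1.5-fold, and 1 was more negative with no floor. The added probe sets with no floor include those below 92.5 on every array.

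In the limma fit the TNF counts of 89 higher and 7 lower became 143 and 34 with quantile normalization, 389 and 104 with equal medians (infinite prior degrees of freedom), 59 and 3 with a pseudocount, 35 and 3 with gene means, 15 and 0 without the intensity trend, and 0 and 0 without the genotype term. The genotype counts of 841 higher and 756 lower became 305 and 306 without the TNF term, and the lower count 488 without the trend. The cause was not tested. Within the family, signal near the floor limits Bnip3 in TNF-treated wild-type cells and the third Bcl2l11 probe set.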

Other observations

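Several target genes of p53, a transcription factor that also induces Bcl-2 family genes, were higher in the knockout cultures. Without TNF, 5 of 10 measured targets exceeded 2-fold upward and 0 downward, against 4.55% and 4.70% of all measured genes, with a median log2 difference of 0.80. With TNF, 6 of 10 were higher and 1 lower, against 5.62% and 5.01%. In the limma genotype effect 5 of 10 were higher and 1 lower, against 10.2% and 9.19% of all probe sets. Perp, a membrane protein gene, was at least 16.7-fold higher without TNF, Ccng1 3.06-fold, the cell cycle inhibitor gene Cdkn1a 2.71-fold and Phlda3 2.13-fold. With TNF, Perp was at least 12.8-fold higher, and Ccng1, Phlda3 and Zmat3 were higher by 1.99, 1.86 and 1.51 on the log2 scale. Gadd45a was 2.26-fold lower in the knockout with TNF. With TNF alone as the contrast, 0 of 9 measured targets in wild-type cells and 0 of 10 in knockout cells were at least 2-fold higher, against 2.64% and 1.48% of measured genes. Lower were 1 of 9 in wild-type cells, against 2.61%, and 0 of 10 in knockout cells, against 0.409%. This was Sesn1, 2.98-fold lower in wild-type cells (449 to 150). Its difference of response was 1.12 on the log2 scale, the 1 of 10 past 2-fold, where 2.69% of all probe sets had a larger and 1.23% a smaller value.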
